A study of Urocitellus parryii with 44 samples.

Results

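The proteasome subunit genes were examined in brown adipose tissue of the arctic ground squirrel, a tissue specialised for making heat from fat. A probe was taken when the platform annotation gave it a single gene symbol that begins with Psma, Psmb, Psmc, Psmd, Psme or Psmf followed by a digit. The rule took 43 of the 11626 gene symbols on the membranes, measured by 110 of the 38400 probes, of which 25070 carry 1 symbol. Of these, 18 genes with 38 probes encode the 20S core and 23 genes with 66 probes encode the 19S cap, its assembly chaperones and the activators. The other 2 symbols, Psmc3ip and Psme3ip1, have 6 probes. They name partner proteins and not subunits, so they are described apart and enter no median of proteasome genes. Psma8, Psme2 and Psmf1 had no probe under the rule and were not analysed here.

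The proteasome is the cell's main machine for the regulated breakdown of proteins tagged with ubiquitin. Its 20S core is a barrel of stacked rings: outer alpha rings (Psma) form the gate, and inner beta rings (Psmb) hold the cutting sites. The 19S cap binds ubiquitin chains, removes them, and unfolds and feeds in the substrate with a ring of ATPases (Psmc) helped by non-ATPase subunits (Psmd), while activators (Psme) can take the place of the cap. In mouse brown fat, the transcription factor Nfe2l1 raises proteasome activity during adaptation to cold.

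Total RNA was labelled with 33P and hybridised to 4 membranes of mouse cDNA probes, MA07, MA08, MA10 and MA11, each with 9600 probes. The torpor group held 5 animals in winter torpor, the state of low body temperature within hibernation, and the other group held 3 active animals taken in August. Season and activity state changed together, so they cannot be told apart. The RNA of torpid animal 5 and of summer active animals 1 and 2 was split and measured as 2 columns per membrane, which were averaged. The labels give no age, sex or treatment, and no more of how the animals were kept.

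A level below is the log2 of the deposited spot intensity over the median of its column, and a difference is winter torpor minus summer active on that log2 scale, with its standard error (SE) from limma. Levels are given in the order of the animal numbers and serve to compare animals on 1 probe, not 1 probe with another. The signal percentile is the rank of a probe's mean signal among the 9600 probes of its membrane. Of the 110 probes, 107 were filled for 2 or more animals in both groups and were tested, and 98 had a value in all 8 animals. Empty cells made up 3.64% of the values of the 110 probes and 3.45% of all values. The split RNAs of the 110 probes differed with a duplicate SD of 0.43 in torpid animal 5, against 0.57 and 0.60 in summer active animals 1 and 2. Over the 101 tested probes of proteasome genes, the median SD between animals was 0.35 in torpid and 0.44 in summer active animals, and the median SE of a difference was 0.31. The number of animals limits the precision, and the depth behind a spot is unknown. The RNA came from whole tissue, so fewer cells of a type and less RNA per cell cannot be told apart.

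Of the 107 tested probes, partner proteins included, 0 passed an adjusted p of 0.05 in either direction by limma with Benjamini-Hochberg adjustment. Over all 37848 tested probes, 0.259% were called higher and 0.0502% lower. Of the 107 probes, 16 had an unadjusted p under 0.05 and were higher in torpor (15.0%, against 6.39% of all tested probes), and 9 had such a p and were lower (8.41%, against 5.18%). In 12 probes every torpid animal lay above every summer active animal, and in 5 every torpid animal lay below (background 4.37% and 4.13%). Without the probes of the partner proteins, 14 were higher and 7 lower at that unadjusted p among 101, and 12 and 3 had groups that did not overlap. The difference was above 0 for 58 of the 101 probes of proteasome genes, 57.4%, against a background of 50.0%. With trend and robust moderation in limma 1 probe was called, Psma3 probe 232 on MA07 (adjusted p = 0.0302). With a variance per group, or with adjustment within each membrane, 0 were called. Without summer active animal 1, the 2 probes Psma3 232 and Psmd14 1243 on MA07 were called, with differences of 1.57 for both and adjusted p of 0.0291 and 0.0489 from limma.

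With each gene represented by its brightest tested probe, 40 proteasome genes had a value, and the difference was above 0 in 26 of them. The median difference was 0.23, with an interquartile range of -0.10 to 0.50, against a median of 0.03 and 53.2% above 0 over 11553 genes treated alike. Of the 40 genes, 7 were higher at an unadjusted p under 0.05 by limma (17.5%, background 8.15%) and 0 were lower (background 4.57%). The 7 genes were Psma2, Psma4, Psmc1, Psmc5, Psmc6, Psmd12 and Psmd14. The backgrounds over all genes, here and below, are not matched for signal or for number of probes. The median signal percentile was 75.8 for the 40 genes and 66.4 for all genes. Of all tested probes above signal percentile 75, 14.6% were higher at that p. In 5 of the 40 genes, which were Psma2, Psma4, Psmc6, Psmd12 and Psmd14, every torpid animal lay above every summer active animal (background 5.18%), and in 0 every torpid animal lay below (background 3.76%). The choice of probe matters for this median: with the probe of median difference it was 0.031, and with the mean over all probes of a gene it was 0.028. With cyclic loess it was 0.12, with quantile normalization 0.15, and without the probes of MA10 0.13. Without summer active animal 2 it was 0.068, and without summer active animal 3 it was 0.38.

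**Figure D1:**
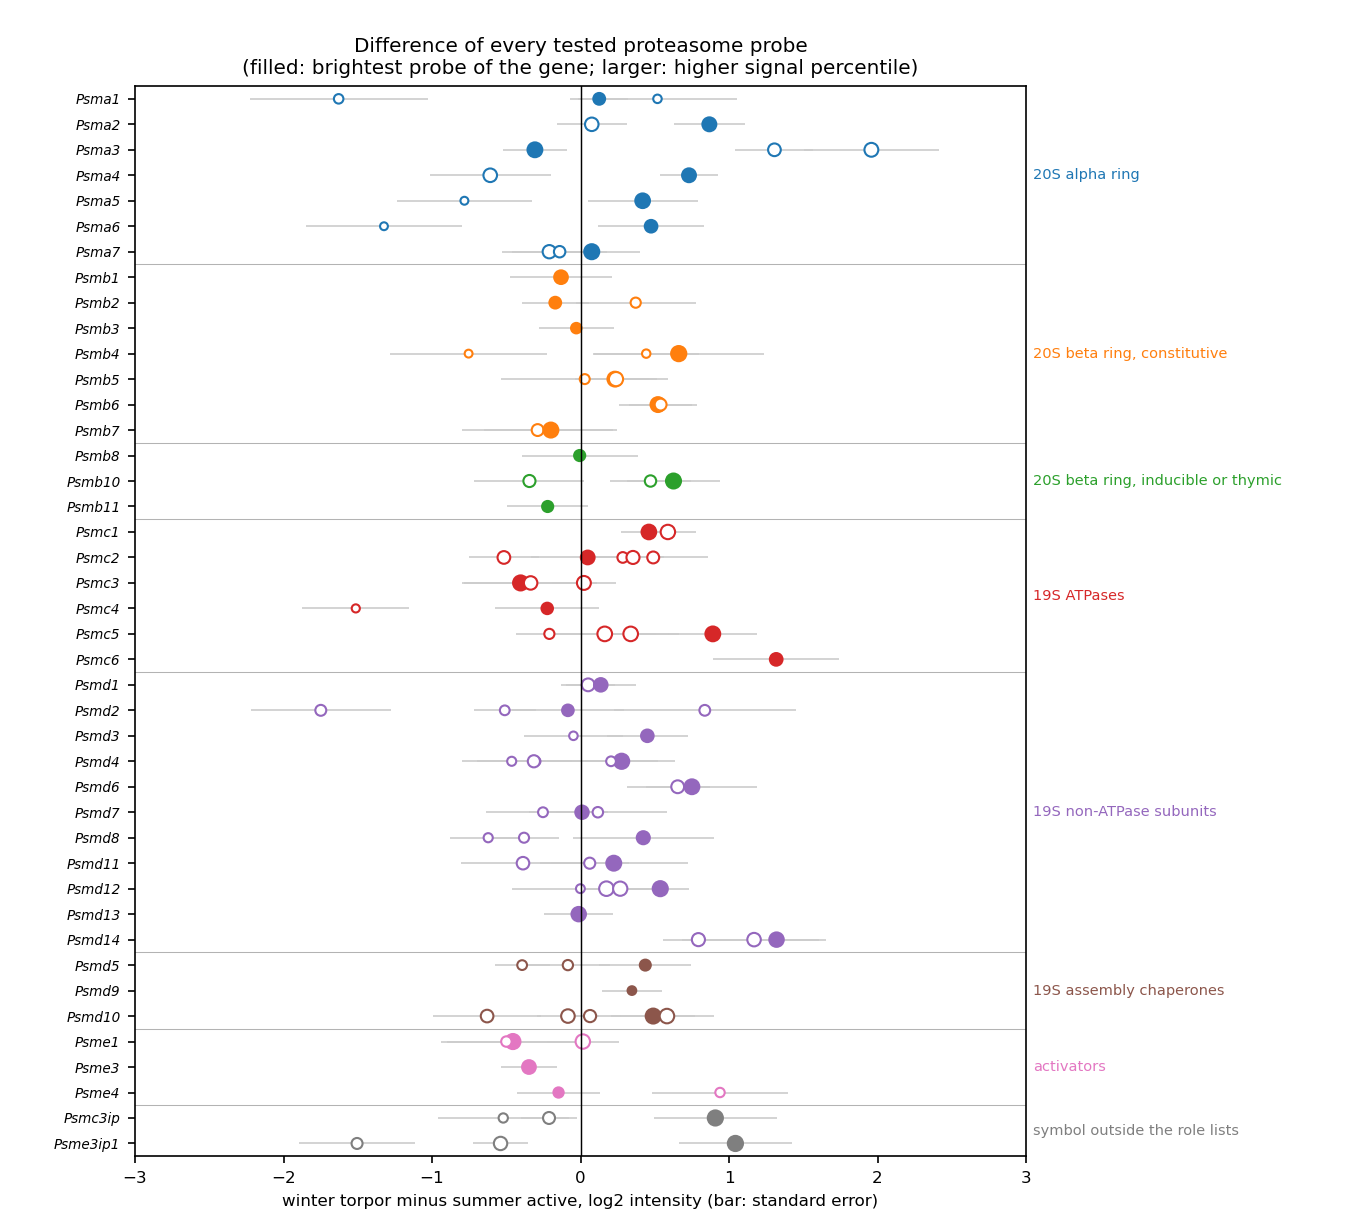
Difference of each of the 107 tested probes, winter torpor minus summer active on the log2 scale (x axis), by gene (y axis, grouped by role); grey bars are standard errors, filled circles the brightest probe of a gene, and larger circles a higher signal percentile. The Psmd14 probes lie at 0.79, 1.17 and 1.32, while the Psma3 probes lie at -0.31, 1.31 and 1.96.

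The alpha ring gates the core. Of its 7 measured genes, 6 had a difference above 0 by the brightest probe, with a median of 0.42. Psma2 and Psma4 were higher at an unadjusted p under 0.05 by limma (28.6%, against 8.15% of all genes). Over the 17 alpha ring probes, 4 were higher and 2 lower at that p (23.5% and 11.8%, against 6.39% and 5.18% of all probes). Psma2, an alpha ring subunit, had log2 levels of 0.90, 0.99, 1.28, 0.98 and 0.93 in torpid animals, against 0.28, -0.46 and 0.62 in summer active animals, on MA07 probe 5386. The 5 torpid animals lay close together and above all 3 summer active animals, and the difference was 0.87 ± 0.24 (SE; adjusted p = 0.206 by limma), or 0.57 without summer active animal 2. The second Psma2 probe, on MA08, had a difference of 0.08. Psma4, another alpha ring subunit, had levels of 1.14, 0.66, 0.80, 1.16 and 0.85 in torpid animals, against 0.37, -0.09 and 0.29 in summer active animals, on MA07 probe 2539. These groups did not overlap either, with a difference of 0.73 ± 0.19 (SE; adjusted p = 0.190 by limma). The Psma4 probe on MA10 had a difference of -0.61, with overlapping groups.

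Psma3, also an alpha ring subunit, had 3 probes on MA07 whose differences had both signs. Probe 232 had levels of 0.63, 0.81, 0.57, 0.78 and 0.64 in torpid animals, against -0.09, -0.41 and -1.36 in summer active animals. All torpid animals were higher, and its difference of 1.31 ± 0.26 (SE) gave the smallest adjusted p of the 107 probes, 0.0845 by limma. Probe 4625 had the largest difference of the 107, 1.96 ± 0.46 (SE, a fold of 3.89; adjusted p = 0.135 by limma). It had levels of 1.89, 0.75, 0.80, 2.11 and 1.41 in torpid animals, against 0.27, -1.69 and -0.28 in summer active animals, again without overlap. The brightest Psma3 probe, 234, had levels of 1.21, 1.68, 1.54, 1.54 and 1.34 in torpid animals, against 1.55, 2.24 and 1.52 in summer active animals. On that probe the groups overlapped, and the difference was -0.31 ± 0.21 (SE). Why probes of 1 gene on 1 membrane differ was not tested.

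Psma1 and Psma6, the other alpha subunits with a probe at an unadjusted p under 0.05, had it on a dim probe and in the other direction. Psma1 probe 7267 on MA10, at signal percentile 17.1, had levels of -2.96, -1.51, -2.62, -4.82 and -1.68 in torpid animals, against -1.76, -0.84 and -0.67 in summer active animals. The difference was -1.63 ± 0.60 (SE; adjusted p = 0.295 by limma), and the groups overlapped. With values floored at the 10th percentile of their column it was -0.99. Its brightest probe, 6002 on MA08, had levels of -0.09, -0.17, -0.23, 0.09 and -0.05 in torpid animals, against 0.06, -0.44 and -0.27 in summer active animals, a difference of 0.13. The torpid animals lay much closer together on the brighter of these probes.

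Psma6 probe 4314 on MA07, at signal percentile 0.448, had levels of -4.30, -3.56, -5.66 and -3.35 in torpid animals 1, 3, 4 and 5, with animal 2 empty, against -2.95, -3.46 and -2.27 in summer active animals. Its difference was -1.32 ± 0.53 (SE; adjusted p = 0.380 by limma), while the brightest Psma6 probe, 6257 on MA08, had 0.48 ± 0.35 (SE). With the floor at the 10th percentile the difference on probe 4314 was -0.071, and without torpid animal 4 it was -0.84. On probe 6257 the levels were 0.69, 0.56, 0.07, 0.69 and -0.62 in torpid animals, against 0.11, -0.91 and 0.21 in summer active animals. Animal 5 was the lowest torpid animal there and the highest on probe 4314. For Psma5 the brightest probe had a difference of 0.42 and the dimmer one -0.78, and for Psma7 the 3 probes lay between -0.21 and 0.08.

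The beta ring holds the cutting sites. Its 7 constitutive genes had a median difference of -0.03 by the brightest probe, with 3 of 7 above 0. At an unadjusted p under 0.05 by limma there were 0 of the 7, against 12.7% of all genes in either direction. Psmb6, the subunit with caspase-like activity, had levels of 2.10, 1.45, 1.94, 1.97 and 1.93 in torpid animals, against 1.39, 0.77 and 1.91 in summer active animals, on MA07 probe 8565. Torpid animal 2 and summer active animal 3 made the groups overlap, and the difference was 0.52 ± 0.26 (SE; adjusted p = 0.478 by limma). On MA11 probe 6082 Psmb6 had levels of -0.02, -0.16, 0.07, 0.28 and 0.09 in torpid animals, against -0.58, -0.48 and -0.40 in summer active animals. Here the groups did not overlap, and the difference was 0.54 ± 0.21 (SE; adjusted p = 0.356 by limma), close to that on MA07.

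Psmb5, the subunit with chymotrypsin-like activity, had levels of 1.54, 1.43, 1.50, 1.38 and 2.22 in torpid animals, against 1.29, 1.66 and 1.20 in summer active animals, on MA07 probe 8394. The groups overlapped, and its 3 probes had differences of 0.03, 0.23 and 0.24. Psmb7, the subunit with trypsin-like activity, had differences of -0.29 and -0.20 on its 2 tested probes. The cutting subunits therefore had 5 of 7 tested probes above 0, against 50.0% of all tested probes. At an unadjusted p under 0.05 by limma there was 1 of the 7, the Psmb6 probe on MA11 (background 11.6% in either direction). Of the constitutive subunits that do not cut, Psmb1 had -0.13 and Psmb3 had -0.03, each on a single probe, Psmb2 ranged from -0.17 to 0.37, and Psmb4 from -0.75 to 0.66.

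Psmb8, Psmb9 and Psmb10 replace the cutting subunits in the immunoproteasome, which immune cells and interferon-treated cells make, and Psmb11 is the beta subunit of thymic epithelium. Psmb10 had levels of 2.70, 2.49, 2.84, 3.35 and 3.71 in torpid animals, against 2.20, 2.84 and 2.14 in summer active animals, on MA11 probe 2070. Torpid animals 4 and 5 were the highest, summer active animal 2 lay among the torpid ones, and the difference was 0.63 ± 0.31 (SE; adjusted p = 0.465 by limma). The other Psmb10 probes had differences of 0.47 and -0.34. Psmb8 had levels of -0.34, -1.03, -0.80, -0.34 and -1.46 in torpid animals, against -0.67, -0.58 and -1.11 in summer active animals, and the groups overlapped fully, with a difference of -0.01 ± 0.39 (SE). Psmb9 was not tested, since its single probe had values in 4 torpid animals (-2.65, -2.42, -3.73 and -2.66) and in 1 summer active animal (-2.13). Psmb11 had a difference of -0.22 ± 0.27 (SE).

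Immunoproteasome products feed class I antigen presentation. Of 10 class I antigen presentation genes listed, 6 were measured, 3 had a difference above 0, and the median was -0.03. Canx, a chaperone of newly made glycoproteins, had 0.64 ± 0.29 (SE; adjusted p = 0.431 by limma) on its brightest probe, and its 7 probes ranged from -0.67 to 0.84. Tapbp had 0.11, and B2m and Calr had -0.09 each. Of 24 symbols listed for immune cell markers, older names among them, 16 were measured, with a median difference of -0.05 and 7 above 0. At an unadjusted p under 0.05 by limma, 1 was higher and 3 were lower (6.25% and 18.8%, against 8.15% and 4.57% of all genes). Lcp1 had a difference of 1.45, and Cd3e, H2-Eb1 and Cd74 had -0.89, -0.80 and -0.66, with adjusted p of 0.170 or more by limma. The groups overlapped for Lcp1, whose 5 probes ranged from -0.75 to 1.45. The 2 probes of Cd3e ranged from -0.89 to -0.28, the 3 of H2-Eb1 from -0.80 to -0.24, and Cd74 had 1 probe. The median level of the 16 markers, each centred on the mean of its group means, ranged from -0.16 to 0.23 in torpid animals and from -0.09 to 0.19 in summer active animals.

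The ATPase ring unfolds substrates, and 4 of its 6 genes had a difference above 0 by the brightest probe, with a median of 0.25. Psmc1, Psmc5 and Psmc6 were higher at an unadjusted p under 0.05 by limma (3 of 6 genes, against 8.15% of all genes). Over the 18 ATPase probes, 4 were higher and 2 lower at that p (22.2% and 11.1%, against 6.39% and 5.18% of all probes). Psmc6 had levels of 1.73, 0.65, 0.44, 1.27 and 0.27 in torpid animals, against 0.09, -0.94 and -0.48 in summer active animals, on its only probe, 4580 on MA10. The groups did not overlap, torpid animals 1 and 4 were the highest, and the difference was 1.32 ± 0.43 (SE, a fold of 2.49; adjusted p = 0.232 by limma). It was 2.15 with the first duplicate of the split RNAs only and 0.49 with the second. Psmc5 had levels of 2.01, 1.74, 1.57, 2.30 and 1.71 in torpid animals, against 0.74, 0.43 and 1.75 in summer active animals, on MA07 probe 7999. Summer active animal 3 lay among the torpid ones, and the difference was 0.89 ± 0.30 (SE; adjusted p = 0.289 by limma), or 0.56 with the first duplicate only. The 4 other Psmc5 probes ranged from -0.21 to 0.34.

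Psmc1 was measured by 2 probes of MA07 that had differences of the same sign. Probe 1737 had levels of 1.60, 1.45, 1.21, 1.45 and 1.53 in torpid animals, against 0.68, 1.0 and 1.28 in summer active animals. Probe 1747 had levels of 1.54, 1.16, 1.24, 1.38 and 0.99 in torpid animals, against 0.68, 0.87 and 0.48 in summer active animals. The groups overlapped by 1 animal on the first and not on the second, and the differences were 0.46 ± 0.19 and 0.59 ± 0.19 (SE; adjusted p = 0.382 and 0.259 by limma).

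Psmc4 was the ATPase with both probes below 0. Its dim MA11 probe 5036, at signal percentile 3.08, had levels of -3.11, -2.12 and -2.68 in torpid animals 1, 3 and 5, against -1.02 and -1.23 in summer active animals 2 and 3, with the other animals empty. Its difference was -1.51 ± 0.36 (SE; adjusted p = 0.157 by limma), or -0.44 with the floor at the 10th percentile. The brighter probe 7987 on MA08 had levels of 0.25, -0.20, -1.07, -0.57 and 0.02 in torpid animals, against -0.21, -0.68 and 0.63 in summer active animals, with overlapping groups and a difference of -0.22 ± 0.35 (SE).

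Psmc2, with 5 probes, ranged from -0.52 to 0.49. Its brightest probe, 7825 on MA07, had levels of 0.51, 1.24, -0.04, 0.87 and 0.50 in torpid animals, against 0.17, -0.01 and 1.54 in summer active animals, a difference of 0.05. Probe 3508 on MA08, its 1 probe at an unadjusted p under 0.05, had levels of 0.01, 0.28, 0.02, -0.33 and -0.32 in torpid animals, against 0.25, 0.87 and 0.23 in summer active animals. That difference was -0.52 ± 0.23 (SE; adjusted p = 0.431 by limma), the only one of the 5 below 0, and -0.31 without summer active animal 2. Psmc3 had differences of -0.40, -0.34 and 0.02 on its 3 probes.

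Among the 11 non-ATPase subunits, 9 had a difference above 0 by the brightest probe, with a median of 0.28. Psmd12 and Psmd14 were higher at an unadjusted p under 0.05 by limma (18.2%, against 8.15% of all genes). Over the 32 probes of these subunits, 5 were higher and 3 lower (15.6% and 9.38%, against 6.39% and 5.18% of all probes). Psmd14, the metalloprotease that cuts ubiquitin chains off the substrate, had levels of 2.26, 1.53, 1.05, 1.44 and 1.46 in torpid animals, against 0.74, -0.11 and 0.06 in summer active animals, on MA07 probe 1243. Torpid animal 1 was the highest, and the groups did not overlap, with a difference of 1.32 ± 0.29 (SE, a fold of 2.50; adjusted p = 0.110 by limma). On MA11 probe 4880 Psmd14 had levels of 0.55, 0.68, 0.93, 0.90 and 0.56 in torpid animals, against 0.02, -0.48 and 0.26 in summer active animals. The groups did not overlap there, with a difference of 0.79 ± 0.24 (SE; adjusted p = 0.228 by limma). On MA10 probe 3578, a spot of the same clone as on MA11, the levels were 1.73, 2.46, 0.77, 1.09 and 1.31 in torpid animals, against 1.28, -0.72 and 0.35 in summer active animals. Summer active animal 1 lay among the torpid ones, and the difference was 1.17 ± 0.48 (SE; adjusted p = 0.361 by limma), or 0.66 without summer active animal 2 and 0.71 with the second duplicate only. Psmd14 was 1 of 7 genes with all probes above 0, among 32 proteasome genes with several tested probes. Over all genes with several probes on the membranes this was 1315 of 6775, a like share. The lowest Psmd14 probe lay higher than the lowest probe of the other 6.

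Psmd12, a lid subunit, had levels of 2.80, 2.94, 2.81, 2.61 and 2.71 in torpid animals, against 2.11, 2.49 and 2.12 in summer active animals, on MA08 probe 1274. The groups did not overlap, with a difference of 0.54 ± 0.19 (SE; adjusted p = 0.310 by limma), or 0.33 with quantile normalization and 0.25 with cyclic loess. The 3 other Psmd12 probes had differences of 0.27, 0.17 and -0.00. Psmd6, another lid subunit, had levels of 0.67, 0.01, 0.49, 0.65 and 0.25 in torpid animals, against -0.32, -0.30 and -0.10 in summer active animals, on MA08 probe 9179. The groups did not overlap, and the difference was 0.65 ± 0.22 (SE; adjusted p = 0.268 by limma). Its brightest probe, 6292 on MA10, had levels of 2.40, 3.25, 3.08, 3.09 and 2.72 in torpid animals, against 2.80, 1.04 and 2.63 in summer active animals. Summer active animal 2 was far below the rest there, and the difference was 0.75 ± 0.44 (SE).

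Psmd2 and Psmd8 had probes in the other direction. Psmd2, a scaffold subunit of the cap base, had levels of -2.59, -1.39, -0.96, -1.04 and -1.95 in torpid animals, against 1.01, -0.68 and 0.15 in summer active animals, on MA10 probe 4253 at signal percentile 33.8. The groups did not overlap, and the difference of -1.75 ± 0.47 (SE, 3.36-fold lower in torpor; adjusted p = 0.144 by limma) was the lowest of the 107. Its 3 other probes had differences of -0.51, -0.08 and 0.84. The brightest, 1002 on MA10, had levels of -0.10, -0.72, -0.16, -0.63 and -0.48 in torpid animals, against -0.85, -0.04 and -0.11 in summer active animals, and these groups overlapped.

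Psmd8, a lid subunit, had levels of -1.18, -1.68, -1.11 and -1.12 in torpid animals 2 to 5, with animal 1 empty, against -0.99, -0.77 and -0.19 in summer active animals, on MA08 probe 4219. All torpid animals lay below, with a difference of -0.62 ± 0.26 (SE; adjusted p = 0.393 by limma), or -0.39 without summer active animal 3. On its brightest probe, 8861 on MA07, the levels were 0.53, -0.32, 0.10 and 1.52 in torpid animals 2 to 5, against -0.26 and 0.33 in summer active animals 1 and 2. There the groups overlapped, with a difference of 0.42 ± 0.47 (SE).

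Of the remaining non-ATPase subunits by their brightest probes, Psmd1, the second scaffold subunit of the base, had a difference of 0.14, Psmd3 had 0.45 and Psmd4, a ubiquitin receptor, had 0.28. Psmd7, the partner of Psmd14 in the lid, had 0.01, Psmd11 had 0.22 and Psmd13 had -0.01. None of these 6 had a probe at an unadjusted p under 0.05 by limma, against 11.6% of all tested probes in either direction. The 5 tested probes of Psmd4 ranged from -0.46 to 0.28, and a further 1 had a value in 1 torpid animal and was not tested. The chaperones that help to build the cap base, Psmd5, Psmd9 and Psmd10, had differences of 0.44, 0.35 and 0.49 by the brightest probe. The probes of Psmd5 ranged from -0.39 to 0.44 and those of Psmd10 from -0.63 to 0.58, and the single Psmd9 probe was at signal percentile 8.45. Of their 9 probes, 5 lay above 0, with a median of 0.06, and 0 reached an unadjusted p under 0.05 by limma (background 11.6% in either direction).

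The 3 measured activators all lay below 0 by the brightest probe, with a median of -0.35. Of their 6 probes, 0 reached an unadjusted p under 0.05 by limma (background 11.6% in either direction). Psme1, a subunit of the interferon-inducible activator, had levels of 3.36, 2.40, 3.83, 3.74 and 3.41 in torpid animals, against 4.51, 2.98 and 3.92 in summer active animals, on MA10 probe 3476. The groups overlapped, with a difference of -0.46 ± 0.44 (SE). On MA10 probe 6593 the levels were -0.66, -1.84, -2.48, -1.65 and -0.96 in torpid animals, against -0.68, -1.40 and -0.98 in summer active animals, with a difference of -0.50, and on MA07 it was 0.02.

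Psme3, the nuclear activator, had levels of 0.15, 0.76, 0.35, 0.36 and 0.63 in torpid animals, against 0.97, 0.71 and 0.72 in summer active animals. Only torpid animal 2 reached into the range of the summer active animals, and the difference was -0.35 ± 0.19 (SE; adjusted p = 0.521 by limma). Psme4, a large single-chain activator, had levels of -0.74, -1.54, -0.51, -0.83 and -1.06 in torpid animals, against -0.37, -1.01 and -0.98 in summer active animals, on MA11 probe 2650. The difference there was -0.15, while on MA10 probe 4465 it was 0.94 ± 0.46 (SE; adjusted p = 0.448 by limma). On that dim probe the levels were -1.78, -1.97, -2.14, -0.71 and -2.63 in torpid animals, against -3.54, -2.67 and -2.15 in summer active animals.

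**Figure D2:**
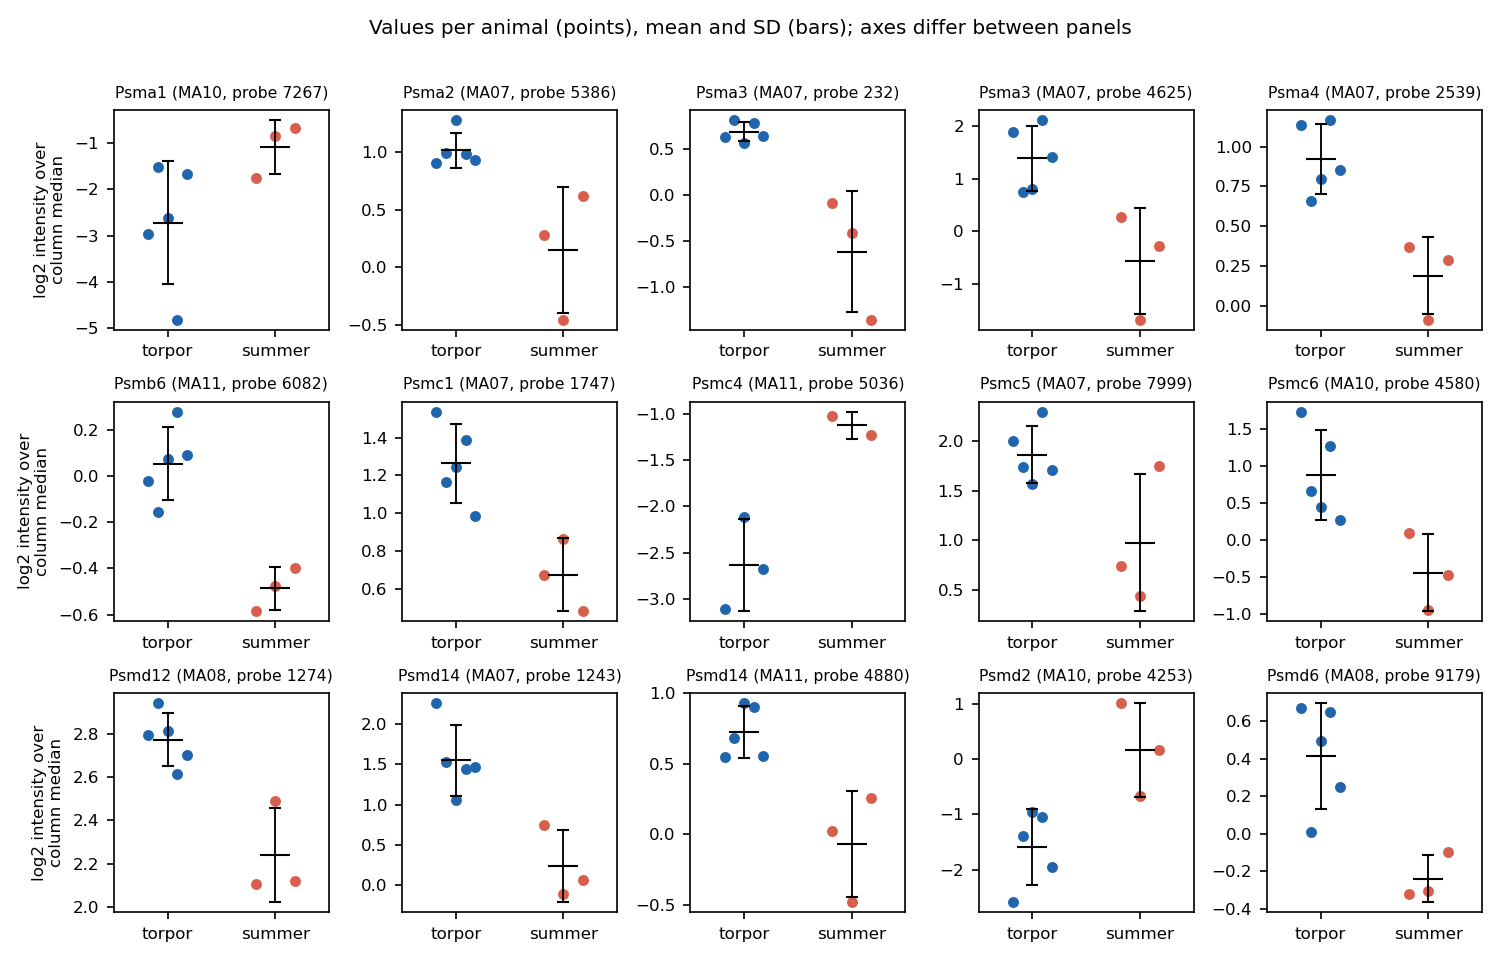
Log2 intensity over the column median (y axis, scaled separately in each panel) of the 15 probes of proteasome genes with the smallest unadjusted p, in the torpid animals (left, blue) and the summer active animals (right, red); each point is an animal and bars are the mean and SD. The groups do not overlap in 13 panels, with torpid animals below in Psmc4 and Psmd2 and above in Psma2, both panels of Psma3, Psma4, Psmb6, Psmc1, Psmc6, Psmd6, Psmd12 and both panels of Psmd14. A choice by smallest p favours such panels: groups did not overlap in 14.9% of the 101 tested probes of proteasome genes, against 8.50% of all tested probes. The Psmc4 panel holds values of 3 torpid and 2 summer active animals only, the other animals being empty on that dim probe.

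The core was then set against the cap with the activators. By the brightest probe, the 17 measured core genes had a median difference of 0.13, with 10 above 0, and the 23 cap and activator genes had a median of 0.28, with 16 above 0. The core median minus the cap median was -0.15. A median level was taken per animal over the genes, each centred on the mean of its group means. For the core it was 0.25, -0.06, 0.00, 0.31 and 0.04 in torpid animals, against -0.07, -0.25 and 0.04 in summer active animals. For the cap and activators it was 0.18, 0.23, 0.09, 0.16 and 0.06 in torpid animals, against -0.15, -0.22 and 0.08 in summer active animals. On both parts summer active animals 1 and 2 were the lowest of the 8, and animal 3 lay among the torpid animals. The core minus the cap was 0.07, -0.29, -0.09, 0.15 and -0.02 in torpid animals, against 0.08, -0.03 and -0.04 in summer active animals, so the groups overlapped fully. No test was made of a score over genes. The sign of the core minus the cap turned without summer active animal 1, to 0.016, and with the probe of median difference, to 0.066. The cap median was 0.17, 0.075 and 0.42 without summer active animals 1, 2 and 3, and the core median was 0.015 and 0.33 without animals 2 and 3. With the probe of median difference the cap median was 0.010. With the mean over all probes of a gene the core median was -0.01.

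**Figure D3:**
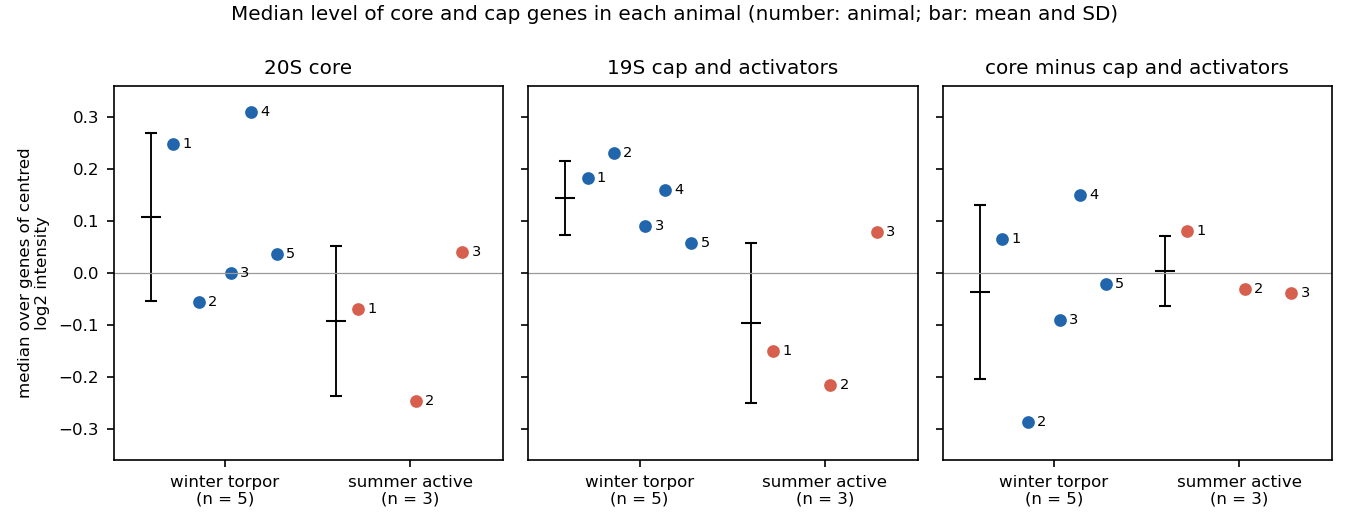
Median over genes of the centred log2 intensity (y axis) in each animal for the 20S core, for the 19S cap with the activators, and for the core minus the cap, with torpid animals (n = 5) left of summer active animals (n = 3); numbers name the animal and bars are the mean and SD. Summer active animals 1 and 2 lie at -0.07 and -0.25 for the core and at -0.15 and -0.22 for the cap, while animal 3 lies at 0.04 and 0.08.

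**Figure D4:**
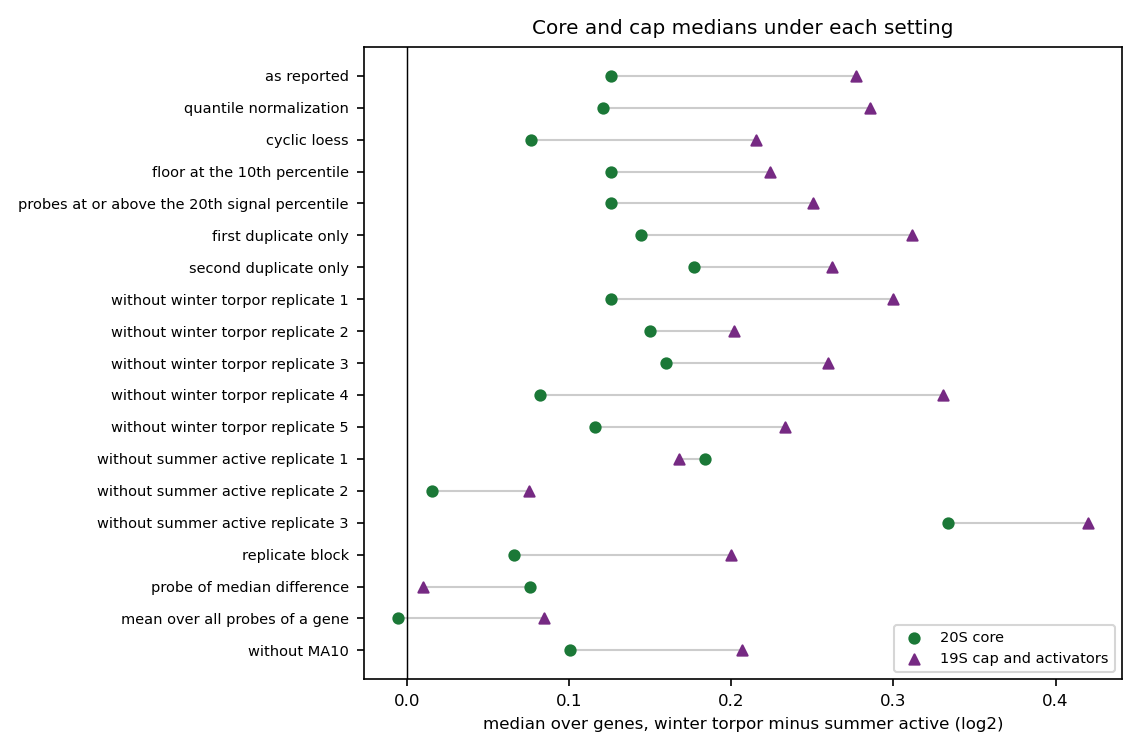
Median difference over genes, winter torpor minus summer active on the log2 scale (x axis), of the core (circles) and of the cap with the activators (triangles) under each setting of the processing (y axis). The core lies below the cap at 0.13 and 0.28 as reported, and above it without summer active animal 1 and with the probe of median difference.

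Single animals weighed on the medians. Over the 39 proteasome genes whose brightest probe had values in all 8 animals, summer active animal 2 was the lowest of the 8 in 13 genes, animal 1 in 9 and animal 3 in 5. Summer active animal 3 was also the highest of the 8 in 7 genes, against 9 for torpid animal 1 and 8 for torpid animal 4. The median level over the 40 genes was 0.24, 0.09, 0.05, 0.22 and 0.05 in torpid animals, against -0.14, -0.23 and 0.06 in summer active animals. Summer active animal 3 therefore lay within the torpid range and the other 2 below it.

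The sign of a difference went with the brightness of the probe. Of the 31 proteasome probes above signal percentile 75, 26 lay above 0, or 83.9%, with a median difference of 0.34. Over all tested probes of that range 60.9% lay above 0, with a median of 0.15. In that range 8 proteasome probes were higher at an unadjusted p under 0.05 (25.8%, against 14.6% of all probes there) and 0 were lower (background 7.03%). Of the 22 proteasome probes below signal percentile 25, 7 lay above 0, with a median of -0.28, against 44.1% and -0.06 over all probes there. Among these dim probes 0 were higher at an unadjusted p under 0.05 (background 3.40%) and 5 were lower (22.7%, against 5.12% of all probes there). Between percentiles 25 and 50, 10 of 23 proteasome probes lay above 0, with a median of -0.03, and between 50 and 75 it was 15 of 25, with a median of 0.05. Above percentile 75, 10 of 12 core probes and 16 of 19 cap and activator probes lay above 0, and below percentile 25 it was 4 of 8 and 3 of 14. The part of signal in these differences was not tested.

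**Figure D5:**
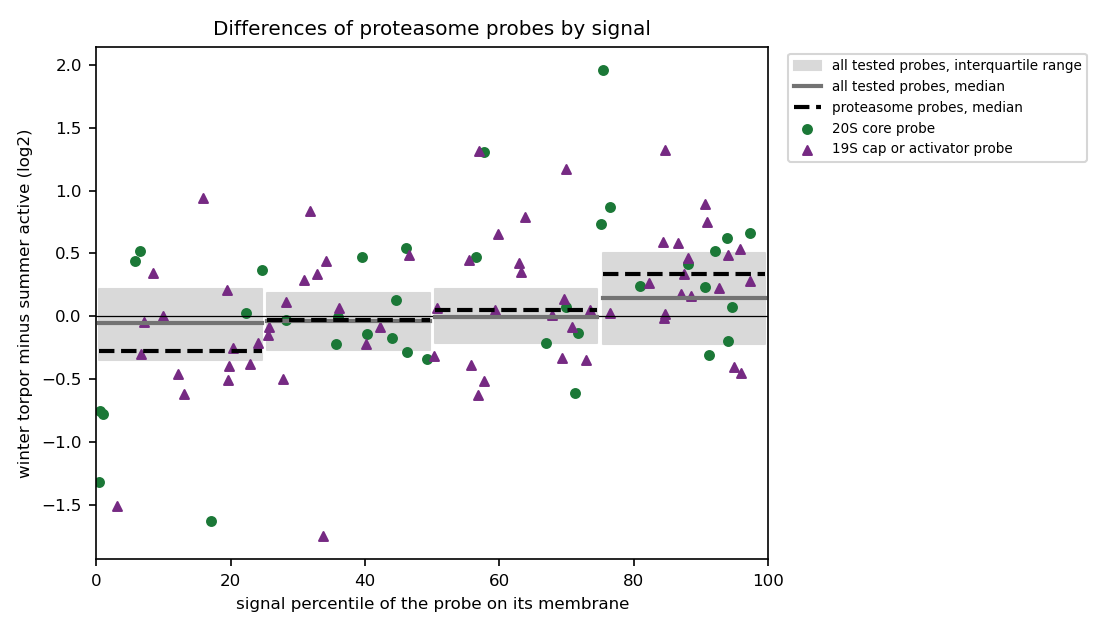
Difference of each tested proteasome probe, winter torpor minus summer active on the log2 scale (y axis), against the signal percentile of the probe on its membrane (x axis); dashed lines are medians of proteasome probes in each of 4 ranges of signal, and grey lines and boxes the median and interquartile range of all tested probes. The medians of proteasome probes are -0.28, -0.03, 0.05 and 0.34 from the dimmest to the brightest range, against -0.06, -0.04, -0.00 and 0.15 for all probes.

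Probes of 1 gene often disagreed. Of the 32 proteasome genes with several tested probes, 23 had probes of both signs, 71.9%, against 61.8% of 6775 genes with several probes on the membranes. In 7 genes all probes lay above 0, which were Psma2, Psmb5, Psmb6, Psmc1, Psmd1, Psmd6 and Psmd14, and in Psmb7 and Psmc4 all lay below. Of the 6775 genes, 1315 had all probes above 0 and 1272 had all below. Spots of a shared clone were printed for 6 genes. The pairs had differences of 1.17 and 0.79 for Psmd14, 0.34 and 0.16 for Psmc5, -0.30 and -0.46 for Psmd4, and 0.44 and -0.08 for Psmd5. The Psmc4 pair had -0.22 and -1.51, the second from 3 torpid and 2 summer active animals, and of the Psmb7 pair 1 spot was not tested. By membrane, the median difference of proteasome probes was 0.08 on MA07 (39 probes), 0.02 on MA08 (27), -0.01 on MA10 (25) and 0.32 on MA11 (10). Over all tested probes of these membranes it was -0.02, 0.01, -0.01 and 0.02, in the same order.

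The 2 symbols that are not subunits showed probes of opposite sign as well. Psme3ip1, a protein that binds the nuclear activator Psme3, had levels of -1.34, -1.0, -1.25, -2.24 and -1.45 in torpid animals, against 0.23, 0.23 and -0.32 in summer active animals, on MA10 probe 2936. All torpid animals lay below, with a difference of -1.50 ± 0.39 (SE; adjusted p = 0.123 by limma), and on MA07 the difference was -0.54, also without overlap. On MA11 probe 6892, its brightest, the levels were 4.60, 3.93, 4.04, 4.36 and 4.94 in torpid animals, against 2.80, 4.40 and 2.80 in summer active animals. That difference was 1.04 ± 0.38 (SE; adjusted p = 0.310 by limma), with summer active animal 2 among the torpid ones and 1.58 without that animal. Psmc3ip, which works in meiotic recombination, had levels of 4.37, 3.90, 3.49, 3.27 and 4.64 in torpid animals, against 2.67, 4.06 and 2.35 in summer active animals, on MA11 probe 3301. Summer active animal 2 again lay among the torpid ones, with a difference of 0.91 ± 0.41 (SE). Without summer active animals 2 and 3 in turn it was 1.43 and 0.57, with quantile normalization 0.61 and with cyclic loess 0.59, and the 2 other probes had -0.21 and -0.52.

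Genes that work with the proteasome were taken from lists of assembly factors, of ubiquitin and shuttle genes and of class I presentation. In these lists 0 genes passed an adjusted p of 0.05 by limma. At an unadjusted p under 0.05 by limma, Usp14, Ubqln1 and Canx were higher in torpor and Vcp was lower. In the order of the lists these were 1 of 12, 2 of 9 and 1 of 6 genes (8.33%, 22.2% and 16.7%). Over all genes by the brightest probe it was 12.7%. Of 17 symbols listed for assembly factors, bound cofactors and regulators, 12 were measured. Some of the 17 are older names of a listed gene, so they stand for fewer genes. The difference was above 0 by the brightest probe for 8 of the 12, and the median was 0.26. Usp14, a deubiquitinase that sits on the cap, had 0.65 ± 0.20 (SE; adjusted p = 0.249 by limma) on its brightest probe, where every torpid animal lay above every summer active animal, and 0.05 on its other probe. Ngly1, which deglycosylates and so helps to activate Nfe2l1, had 0.64 ± 0.39, the assembly chaperone Psmg1 had 0.40 ± 0.28, and Ecpas, which binds core and cap, had 0.33 ± 0.17 (SE). Nfe2l1 itself had -0.03 ± 0.42 (SE) on its brightest probe and reached 0.54 on another of its 4. Of 17 symbols of ubiquitin genes, activating enzymes and shuttles, older names among them, 9 were measured. The difference was above 0 for 7 of the 9, and the median was 0.04.

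Vcp, the ATPase that pulls ubiquitin-tagged proteins out of complexes and membranes for the proteasome, was the one of these with the smallest adjusted p. It averaged 2.08 ± 0.19 in torpid animals (SD, n = 5), against 3.15 ± 0.39 in summer active animals (SD, n = 3), without overlap. The difference was -1.07 ± 0.21 (SE; adjusted p = 0.0826 by limma), and its 6 probes ranged from -1.07 to 0.06. The shuttles Ubqln1, Ubqln4 and Ubqln2, which carry tagged proteins to the cap, had 0.57 ± 0.21, 0.37 ± 0.25 and 0.23 ± 0.19 (SE), and Ubqln1 alone of these had groups that did not overlap. The 4 probes of Ubqln1 ranged from -0.03 to 0.57.

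Markers of the labelled tissue and of other cells were measured beside these genes. Of 8 brown adipocyte markers 5 were measured, 1 had a difference above 0, and the median was -0.58. Their median centred level ranged from -0.53 to -0.08 in torpid animals and from 0.15 to 0.29 in summer active animals, without overlap. Taken singly, each of the 5 markers had overlapping groups, and 0 reached an unadjusted p under 0.05 by limma. Over all genes by the brightest probe, 8.94% had groups that did not overlap and 12.7% had such a p. Cidea, Ppargc1a, Elovl3 and Prdm16 lay above the median signal of their membranes and Dio2 at percentile 7.23, while Ucp1 was not analysed here. Of 7 symbols listed for adipocyte markers, an older name among them, 3 were measured, with a median of 0.37. Their centred level ranged from -0.22 to 0.25 in torpid animals and from -0.32 to 0.33 in summer active animals. Skeletal muscle markers (5 of 10 measured) had a median of -0.38 and ranged from -0.50 to 1.0 in torpid animals and from -0.55 to 0.91 in summer active animals. Endothelial markers (5 of 8) had a median of 0.36 and ranged from -0.25 to 0.54 in torpid animals and from -0.27 to 0.45 in summer active animals. Erythroid markers (2 of 3) had a median of -0.15 and ranged from -0.86 to 0.85 in torpid animals and from -0.38 to 0.86 in summer active animals. At an unadjusted p under 0.05 by limma, 1 of the 5 skeletal muscle markers was higher. Of the 5 endothelial markers, 1 was higher and 1 lower at that p, and of the adipocyte and erythroid markers 0 reached it. The background is again 12.7% of all genes in either direction. The part of cell makeup in the proteasome differences was not tested.

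In the RefSeq annotation of the squirrel (mUroPar1.hap1), 41 of the 43 symbols matched, and Psmb4 and Psmd4 did not. The matched genes lie on 11 chromosomes. Psmb5 and Psmb11 are neighbours with 0 protein-coding genes between them, and Psmb9 and Psmb8 have 1 between them. The single Psmb11 probe had a difference of -0.22, against 0.03 to 0.24 for the 3 Psmb5 probes.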

How the data were processed

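RNA of brown fat from 8 animals was measured on 4 mouse cDNA membranes, as 44 columns. The deposited values are intensity on a linear scale, and they have a column median of 1 with empty cells ranked lowest, so they were taken as scaled before deposit. How images were read, how background was treated and why some cells are empty is not given in the sources used here. Intensities were taken to log2, with empty cells as missing, and split RNAs were averaged. Each membrane was fitted with limma 3.58.1 (R 4.3.3; lmFit and eBayes, two-sided) for probes with at least 2 animals per group. p-values were adjusted after Benjamini-Hochberg over all 37848 tested probes together, and called under 0.05. The fit was tested on simulated data. Where nothing says how samples were taken, p-values measure only the spread between these animals.

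The platform annotation, which can be outdated, gave 1 symbol to 25070 probes, several to 941 and none to 12389. They name mouse genes, whereas the RNA is of squirrel. A gene was represented by its tested probe of highest signal percentile. Levels of every animal are given for the brightest probe, and the probe of smallest p, of each gene with any probe at an unadjusted p under 0.05, and of a fixed set of Psmb5, Psmb8, Psmb9, Psmb10, Psmd14, Psmc2, Psme1, Psme3, Psme4 and Psmf1. Up to 4 genes of smallest p were named from each related list. Psma3 probe 4625, Psmd14 probes 4880 and 3578, Nfe2l1 and single markers fall outside this rule and were chosen after their values were seen. The members and lists were chosen with earlier results of these data known. Alternatives covered scaling, a floor, dim probes, duplicates, the variance model, the adjustment, a replicate block, each animal left out, the probe of a gene and the membranes.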

Additional observations from a re-analysis of the deposited data

Results flagged for a closer look

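In 4 of 49 groups of 4 or 5 torpid animals examined, 1 animal stood apart by Dixon's ratio, the gap to its neighbour over the whole range of the group. Chance flags about 1 in 20 groups. For Psmd8 on MA08 (probe 4219) the ratio was 0.891, above the critical value of 0.829 for 4 animals: torpid animal 3 lay at -1.68, against -1.18 to -1.11 for the other torpid animals. For 5 animals the critical value is 0.71. For Psmb5 on MA07 (probe 8394) the ratio was 0.807, with torpid animal 5 at 2.22. For Psma2 on MA07 (probe 5386) it was 0.756, with torpid animal 3 at 1.28. For Psmb6 on MA07 (probe 8565) it was 0.746, with torpid animal 2 at 1.45.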

How the results depend on the processing

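Over all probes, 117 were called as reported, and 63 with cyclic loess, 213 among probes at or above the 20th signal percentile, 176 and 38 with the first and second duplicate only, and 17 to 347 with 1 animal left out (17 without torpid animal 2, 45, 50 and 60 without torpid animals 1, 3 and 4, and 347 without summer active animal 1). Of the 107 probes, partner proteins included, 0 were called as reported, 1 with trend and robust moderation, and 0 to 2 with 1 animal left out, the 2 without summer active animal 1. Of these probes 9 were lower at an unadjusted p under 0.05, against 4 among those at or above the 20th signal percentile and 4 to 9 with 1 animal left out, with 4 without summer active animal 3. The higher ones numbered 16, and 12 to 19 over 17 alternatives. Leaving out 1 animal moved the median of proteasome genes (0.23) between 0.068 and 0.38, of the core (0.13) between 0.015 and 0.33, of the cap and activators (0.28) between 0.075 and 0.42, and of the core minus the cap (-0.15) between -0.25 and 0.016. The probe of median difference gave 0.031 for all, 0.010 for the cap and 0.066 for the core minus the cap. Scaling and membranes moved the median of proteasome genes to 0.12 with cyclic loess, 0.15 with quantile normalization and 0.13 without MA10, and of the core to 0.076 with cyclic loess. The mean over all probes gave 0.028 for all and 0.084 for the cap. With the 2 symbols that are not subunits, an alternative chosen after seeing the data, the median was 0.25. Of the 25 of 107 probes at an unadjusted p under 0.05, partner proteins included, 0 changed sign under 348 alternative values, and 2 passed the adjusted threshold in these, both without summer active animal 1. The 25 were picked by that p in these same data, and the alternatives reuse the same animals. A change of sign was therefore unlikely from the start, and its absence is no sign of robustness. Sizes moved by over 1.5 times for 12 of the 25, with the values given beside each gene, and under the replicate block to -0.34 for Psmc2 probe 3508, -0.89 for Psmc4 probe 5036 and -0.95 for Psmd8 probe 4219. Precision is limited by the 8 animals, and signal over background could not be set for dim probes.

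The labels number animals in both groups, but same-numbered animals did not deviate together (correlations of 0.014, 0.010 and 0.009), so the numbers do not pair them. With a replicate block, 32 probes were called over all and 5 of the 107 were lower at an unadjusted p under 0.05, and the median of proteasome genes was 0.14 and of the core 0.066.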
